A study of Homo sapiens with 16 samples.

Results

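The genes described here encode the strand proteins and scaffolds of the epithelial tight junction: the claudins CLDN1, CLDN2, CLDN3, CLDN4, CLDN7 and CLDN12, occludin (OCLN), and the zonula occludens proteins ZO-1 (TJP1) and ZO-3 (TJP3). They were found by gene name among the non-control probes of the array, and all 9 genes were present, with 14 of the 40982 probes tested. Gene expression was measured in undifferentiated Caco-2 cells, a line from a human colon carcinoma whose cells grow as an epithelial sheet, on day 3 after seeding in medium with 1% serum. For 6 h the cells were kept in medium alone (MED-CTL) or exposed to gliadin digested with pepsin and trypsin (PT-G), to a blank pepsin-trypsin digest without substrate (PT), or to 150 µg/ml of the synthetic gliadin peptide p31-43. The enzymes in PT and PT-G had been heat-inactivated, and the PT and PT-G cultures are called digests here, as against the MED-CTL and p31-43 cultures without enzymes. The cells of every condition, controls included, were detached with trypsin-EDTA before RNA was extracted, and all values come from 1 cell line. There were 16 one-colour arrays, 4 per condition, on 5 slides and in 4 runs that each held 1 array of every condition. The run-3 PT array and the run-4 p31-43 array were on a slide apart from the other arrays of their runs. Runs 1 and 2 are called earlier and runs 3 and 4 later, after the scan dates in the array files.

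Tight junctions seal the space between epithelial cells. Claudins form the strands and set which ions pass: CLDN1, CLDN3, CLDN4 and CLDN7 are counted among the sealing claudins, while CLDN2 forms a channel for cations and water. Occludin lies in the same strands, and ZO proteins tie both to the actin cytoskeleton from the cytoplasmic side. Gliadin is held to open tight junctions in the gut, and the comparisons below ask whether RNA for these proteins differed after the gliadin digest, the blank digest or the peptide. RNA levels say nothing on where the proteins lie in the cell, and in bulk RNA fewer cells with a transcript and less of it per cell cannot be told apart.

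Median intensities of the arrays lay between 153 and 410, over local backgrounds of 48 to 65, and between 27660 and 33947 of 43376 spots per array were well above background. All 14 probes of these genes were well above background on every array, except the CLDN2 probe on 1 PT array (run 4). Of 9 markers of colon epithelium 8 were well above background on all 16 arrays, among them TACSTD1 (EPCAM), KRT8 and VIL1, and CDX1 was on 1 array. Of 6 markers of differentiated enterocytes 5 were on all 16 arrays (SI, LCT, ALPI, ANPEP and DPP4) and FABP2 on none. Of 3 leukocyte markers CD3E and CD14 were on all 16 and PTPRC on none, and of 2 endothelial markers PECAM1 was on all 16 and CDH5 on none. Values are log2 intensities after quantile normalization, so a difference of 1 is a doubling of signal, and levels of different probes are not set against each other. A gene was counted by its brightest probe, and a probe was called changed at a nominal p under 0.01 in limma, the threshold of the study, with the Benjamini-Hochberg adjusted p of limma over all 40982 probes beside it.

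CLDN3, a sealing claudin, was the member whose RNA rose after the digests. On its brighter probe the 4 MED-CTL arrays read 11.23, 11.22, 11.12 and 11.17 in runs 1 to 4, and the p31-43 arrays read 10.71, 11.08, 11.12 and 10.94. The PT arrays read 11.42, 11.49, 11.61 and 11.58, and the PT-G arrays 11.42, 11.43, 11.45 and 11.41. All 8 digest arrays thus lay above all 8 arrays without enzymes, and the 4 PT-G values were within 0.05 of one another. A separation of this kind, in the higher direction, was found for 0.823% of the 40705 probes measured on all arrays. The digests were 0.40 higher on the log2 scale than the cultures without enzymes, a 1.32-fold difference (SE 0.06, 95% interval 0.28 to 0.53, n = 8 arrays each, adjusted p = 0.000999). Of all probes, 6.46% were called in this comparison and 3.57% had an adjusted p under 0.05, and 1 of the 9 members was called beside that background, which says little of the members as a set. An exact two-sided permutation test of 8 arrays against 8 gave p = 0.000155, and an exact permutation test within runs gave p = 0.00154. Each value is the smallest that its test allows and follows from the separation of the arrays described above. These tests therefore restate that separation and are no further evidence for it. The test of 8 against 8 also treats arrays of different runs as exchangeable.

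Each digest was also compared with MED-CTL on its own. PT raised CLDN3 by 0.34 (SE 0.08, n = 4 arrays each, adjusted p = 0.0757) and PT-G by 0.25 (SE 0.08, n = 4 arrays each, adjusted p = 0.269). The means were 11.18 ± 0.05 in MED-CTL, 11.52 ± 0.09 in PT and 11.43 ± 0.02 in PT-G (SD, n = 4). In both comparisons the 4 digest arrays lay above the 4 MED-CTL arrays, as they did in the higher direction for 2.37% of probes with PT and 2.02% with PT-G. These were the only members called: 1 of 9 in each comparison, where 3.64% of all probes were called for PT and 3.44% for PT-G. The PT-G call was close to its threshold and was lost in 5 alternatives, with values between 0.22 and 0.32. When 1 array was left out in turn it held in 5 of 16 cases, and it was lost without any of the MED-CTL or PT-G arrays, at 0.22 to 0.26. The PT call was lost with the background-subtracted signal, at 0.34, and the PT difference was 0.23 within the earlier and 0.45 within the later runs. CLDN3 did not differ between PT-G and PT beyond the spread: the difference was −0.09 (95% interval −0.27 to 0.08, n = 4 arrays each, adjusted p = 1).

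Since all 3 comparisons with MED-CTL share the same control arrays, the digests were set against each group without enzymes in turn, a choice made after the values were seen. CLDN3 was 0.29 higher in the digests than in MED-CTL alone (SE 0.07, 8 against 4 arrays, adjusted p = 0.0498) and 0.51 higher than in p31-43 alone (SE 0.07, 8 against 4 arrays, adjusted p = 0.00158). Under p31-43 itself the CLDN3 level was −0.22 relative to MED-CTL (SE 0.08, 95% interval −0.39 to −0.05, adjusted p = 1), which was not called, and run 1 held the lowest p31-43 value. It was called at −0.29 with array weights and at −0.26 and −0.27 without the run-2 or the run-3 p31-43 array. Without the run-1 p31-43 array it shrank to −0.14 and was not called, and on the dimmer probe p31-43 gave 0.07.

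The dimmer CLDN3 probe was 0.38 higher in the digests (SE 0.17, 95% interval 0.02 to 0.73, n = 8 arrays each, adjusted p = 0.351), a difference of like size that was not called. Its MED-CTL arrays read 8.83, 9.05, 8.12 and 8.56 in runs 1 to 4, and its PT arrays 9.20, 9.34, 8.97 and 9.20. The PT-G arrays read 9.31, 9.39, 8.68 and 8.33, so that they were high in the earlier runs and overlapped with MED-CTL in the later ones. With run as a block in the model the dimmer probe was called (SE 0.10, adjusted p = 0.0289). Across the 16 arrays the 2 CLDN3 probes correlated with r = 0.46, as a description of arrays that share runs.

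**Figure D1:**
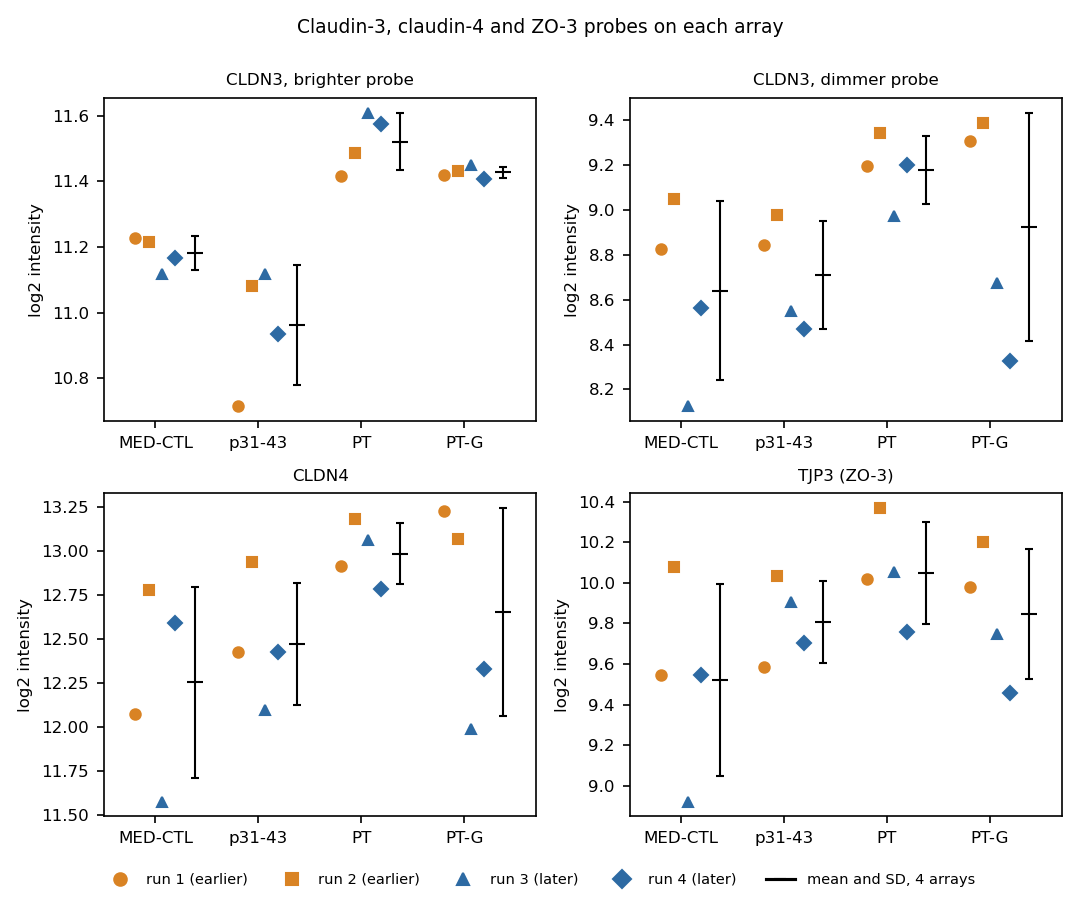
Log2 intensity (vertical axes) of both CLDN3 probes, CLDN4 and TJP3 on each of 16 arrays, grouped by condition. Marker shapes stand for runs, orange for earlier and blue for later runs, and black bars for the mean and SD of 4 arrays; on the brighter CLDN3 probe all 8 PT and PT-G arrays lie above the other 8, whereas the other 3 probes overlap between these sets.

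CLDN3 and CLDN4 are neighbouring genes on chromosome 7, with no other gene between them in RefSeq (GRCh38.p14), and they stand first among the members by the size of the digest difference. Their promoter windows are shown for that reason, as the 250 bases before the annotated start. The CLDN3 window is chr7:73770271-73770520 on the minus strand and the CLDN4 window chr7:73830746-73830995 on the plus strand, both from RefSeq (GRCh38.p14). Capitals mark GGGCGG, the GC box bound by SP-family factors, and TGANTCA, each searched on both strands. TGANTCA is a loose form of the site of AP-1 (FOS and JUN proteins), with any base allowed at N.
CLDN3: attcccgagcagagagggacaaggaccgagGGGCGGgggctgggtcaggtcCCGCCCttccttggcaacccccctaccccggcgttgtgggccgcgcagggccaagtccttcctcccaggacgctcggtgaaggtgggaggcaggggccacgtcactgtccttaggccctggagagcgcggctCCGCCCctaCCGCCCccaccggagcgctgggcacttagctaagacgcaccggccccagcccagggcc
CLDN4: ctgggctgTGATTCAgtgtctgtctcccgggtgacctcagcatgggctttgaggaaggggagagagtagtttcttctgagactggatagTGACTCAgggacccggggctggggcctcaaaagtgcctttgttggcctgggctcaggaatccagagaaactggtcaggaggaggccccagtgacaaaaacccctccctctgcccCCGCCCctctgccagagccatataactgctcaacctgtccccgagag
The CLDN3 window held 4 GC boxes and no AP-1 match, and its GC content was 71.6%, against a median of 58.0% over 35116 RefSeq promoter windows. GC content was 58.8% in the CLDN4 window, and windows of the other members ranged from 34.8% (TJP1) to 71.2% (CLDN7). A high content was thus not particular to CLDN3. The CLDN4 window held 1 GC box and 2 matches to the loose AP-1 motif, TGATTCA and TGACTCA. Of the other members, only CLDN2 had a window with such a match, TGATTCA. GC boxes stood in windows of CLDN1, CLDN7, OCLN, TJP1 and TJP3 too, but in none of CLDN2 or CLDN12. A GC box stood in 42.6% of all windows and an AP-1 match in 6.57%. Neither window held CACCTG, the E-box bound by the repressors SNAI1 and ZEB1, which 17.5% of all windows held, nor GCGNGGGCG, the EGR1 motif, held by 8.41%. The motifs were chosen after the expression values were known, and a match is a description of letters only.

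CLDN4, the other sealing claudin at this locus, varied more from array to array. Its MED-CTL arrays read 12.07, 12.78, 11.58 and 12.59 in runs 1 to 4, its p31-43 arrays 12.42, 12.94, 12.10 and 12.43, its PT arrays 12.92, 13.18, 13.06 and 12.78, and its PT-G arrays 13.23, 13.06, 11.99 and 12.33. All 4 PT arrays were above all 4 MED-CTL arrays, as was the case for 2.37% of the probes measured on all arrays. The lowest PT array exceeded the highest MED-CTL array by little (12.781 against 12.777). PT-G was high in the earlier runs and overlapped with MED-CTL in the later ones. PT was 0.73 above MED-CTL (1.66-fold, SE 0.30, 95% interval 0.10 to 1.37, n = 4 arrays each, adjusted p = 0.441) and PT-G 0.40 (SE 0.30, 95% interval −0.24 to 1.04, adjusted p = 0.941). The PT-G difference was 0.17 without the run-3 MED-CTL array and 0.62 without the run-3 PT-G array, the extremes when 1 array was left out. Neither PT nor PT-G was called for CLDN4, nor was the digest difference of 0.46 (SE 0.21, 95% interval 0.01 to 0.91, n = 8 arrays each, adjusted p = 0.377). The digest difference was 0.82, 0.27, 0.69 and 0.05 within runs 1 to 4. PT against MED-CTL gave 0.844, 0.406, 1.485 and 0.192 within these runs. In run 3 the MED-CTL and PT arrays lay on different slides and had the lowest (153) and highest (410) median intensity of the series.

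With run as a block, which takes the differences between runs out of the error, 10.3% of all probes were called for PT against MED-CTL. Among the members, counted by the brightest probe, CLDN4 (SE 0.22, adjusted p = 0.0708) and TJP3 (SE 0.16, adjusted p = 0.0707) then joined CLDN3 (SE 0.08, adjusted p = 0.0214), which made 3 of 9. For PT-G the block left CLDN3 alone (SE 0.08, adjusted p = 0.0892), while 9.16% of all probes were called. In the digest comparison the block again left CLDN3 as the single called gene (SE 0.05, adjusted p = 0.000468), where 14.3% of all probes were called. Without the run-3 MED-CTL array, the lowest for both genes, the PT difference fell to 0.51 for CLDN4 and 0.33 for TJP3.

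CLDN1, a claudin of the barrier in many epithelia, has 2 probes that differed in how much they spread. On the brighter probe the digests were 0.17 higher (SE 0.25, 95% interval −0.37 to 0.71, n = 8 arrays each, adjusted p = 0.919). On the dimmer probe they were 0.27 higher (SE 0.11, n = 8 arrays each, adjusted p = 0.31), and with run as a block this probe was called (SE 0.06, adjusted p = 0.00988). The dimmer probe was higher in the digests within each run, by 0.38, 0.26, 0.22 and 0.20. How many of all probes were higher within each run was not counted.

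CLDN2, the channel-forming claudin, was measured close to background, between 6.30 and 7.10 over all arrays. Its digest difference was 0.02 (SE 0.13, 95% interval −0.25 to 0.29, n = 8 arrays each, adjusted p = 0.99). CLDN7 differed by 0.05 between digests and cultures without enzymes (SE 0.11, 95% interval −0.18 to 0.28, adjusted p = 0.95). The upper ends of these intervals, 0.293 for CLDN2 and 0.284 for CLDN7, lay below the 0.40 of CLDN3. They still reached the lower end of the CLDN3 interval, 0.281. Intensities were not background-corrected, which shrinks differences for a signal close to background. The CLDN2 interval therefore does not exclude a change of the size seen for CLDN3. CLDN12, a claudin that lacks the PDZ-binding end of the others, gave 0.12 on its brighter probe (SE 0.27, adjusted p = 0.959) and −0.05 on its dimmer one (SE 0.22, adjusted p = 0.982).

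Occludin is the membrane protein most often measured in studies of gut leakiness. The OCLN arrays spread from 10.61 to 12.41 on the brighter probe, and the digests were 0.24 higher (SE 0.29, 95% interval −0.38 to 0.85, n = 8 arrays each, adjusted p = 0.89). With 1 array left out the difference ran from 0.11, without the run-3 PT-G array, to 0.41, without the run-3 p31-43 array. Within runs 1 to 4 this difference was 0.27, 0.31, 0.12 and 0.24, and with run as a block it had an SE of 0.08 (95% interval 0.07 to 0.41, adjusted p = 0.0724) and was still not called. The dimmer OCLN probe gave 0.21 (SE 0.19, adjusted p = 0.804), and it too was higher in the digests within each run. As for CLDN1, the share of all probes that did so was not counted.

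The scaffold genes went in opposite directions, without a call. TJP1 (ZO-1) was −0.10 in the digests on its brighter probe (SE 0.15, 95% interval −0.42 to 0.22, n = 8 arrays each, adjusted p = 0.918) and −0.12 on the other (SE 0.15, adjusted p = 0.89). The TJP3 (ZO-3) arrays read 9.54, 10.08, 8.92 and 9.55 for MED-CTL in runs 1 to 4, and 10.02, 10.37, 10.05 and 9.76 for PT. PT was 0.53 above MED-CTL (SE 0.22, 95% interval 0.06 to 1.00, n = 4 arrays each, adjusted p = 0.465) with overlapping arrays, and the digest difference of TJP3 was 0.28 (SE 0.16, 95% interval −0.05 to 0.62, adjusted p = 0.525).

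**Figure D2:**
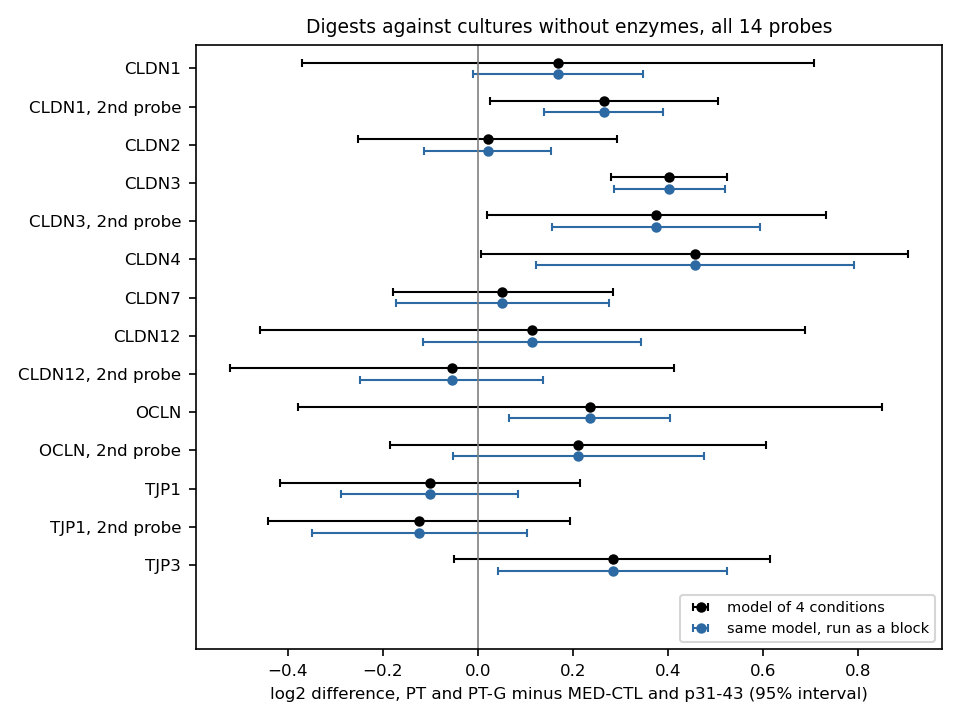
Log2 difference between the digests (PT and PT-G, 8 arrays) and the cultures without enzymes (MED-CTL and p31-43, 8 arrays) for all 14 probes (vertical axis), with 95% intervals as bars, from the model of 4 conditions (black) and with run as a block (blue). The brighter CLDN3 probe stands at 0.40 with an interval from 0.28 to 0.53, TJP1 lies below 0 on both probes, and the block shortens most intervals.

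**Figure D3:**
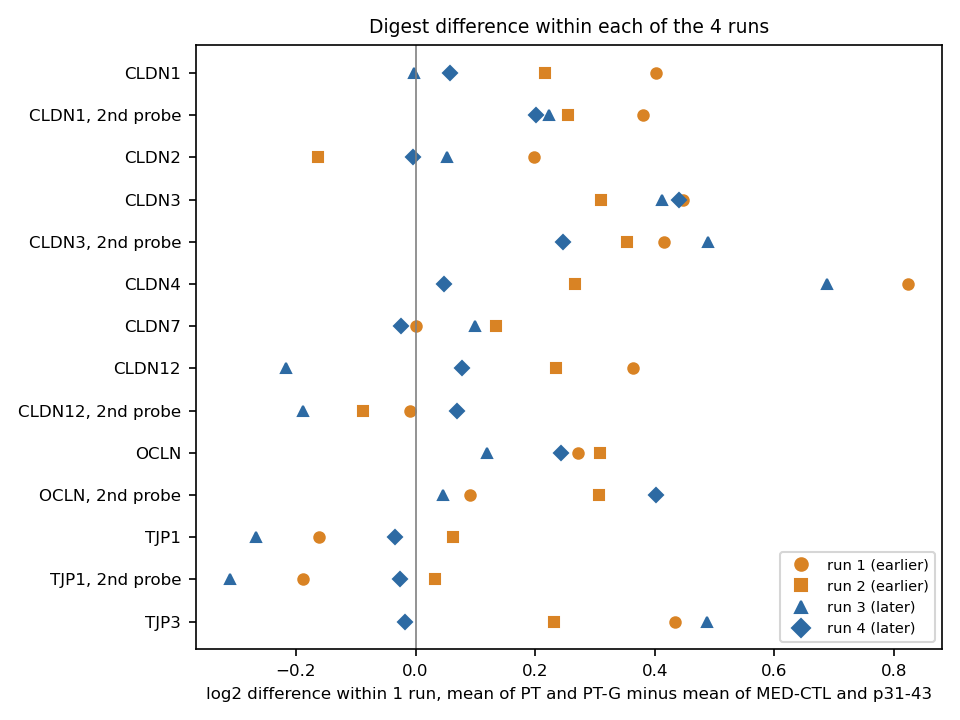
The same log2 difference for the 14 probes computed within each run, from 1 array of each condition. Shapes stand for runs, and both probes of CLDN3, CLDN4, the dimmer CLDN1 probe and both probes of OCLN lie above 0 in all 4 runs. The share of all probes above 0 in all 4 runs was not counted.

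In all, 8 of the 9 genes had a positive digest difference on the brightest probe, with a median of 0.17 against −0.003 over all probes tested, but CLDN3 was the only one called and 2 of 9 had a nominal p under 0.05. For p31-43 against MED-CTL none of the 9 was called by limma and 1 had a nominal p under 0.05, CLDN3, while 0.388% of all probes were called. The intervals of that comparison ran from −1.09 (OCLN) to 0.90 (CLDN12) on the log2 scale. For PT-G against PT, which asks what gliadin added to its digestion enzymes, none of the 9 was called, none had a nominal p under 0.05, and 0.0903% of all probes were called. There the differences lay between −0.33 (CLDN4) and 0.22 (TJP1), with intervals from −0.97 (CLDN4) to 1.08 (OCLN), so for the genes that varied most the intervals still held changes of about a doubling.

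Other genes of the junction were taken from 9 lists, among them other claudins, further membrane and plaque proteins, polarity, adherens junction and desmosome proteins, transcription regulators and receptors linked to gliadin or trypsin. Of 92 such genes measured, 4 were called higher and 1 lower in the digests, a share no larger than the 6.46% of all probes called there, so the genes named here do not set these lists apart. None of the 14 other claudins, 7 other membrane proteins and 11 other plaque proteins was called in that comparison. CLDN23 was 0.30 higher without a call (SE 0.11, adjusted p = 0.225). Only 5 of the 14 other claudin probes were well above background on all 16 arrays, and 4 were on none, which limits what could be called there. The called genes were KLF5 and SNAI1 among the regulators, F2R among the receptors, and PARD3 among the polarity genes, which were higher, and PVRL3 (nectin-3) of the adherens junction, which was lower.

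KLF5, a transcription factor of proliferating gut epithelium, rose by 0.86 (SE 0.10, n = 8 arrays each, adjusted p = 0.000207). SNAI1, a repressor known to act on the genes of E-cadherin, claudins and occludin, was 0.98 higher (SE 0.29, adjusted p = 0.0873), while E-cadherin itself (CDH1) gave −0.04 (SE 0.16, adjusted p = 0.986). F2R, the thrombin receptor PAR1, was 0.50 higher (SE 0.12, adjusted p = 0.0282), and F2RL1, the trypsin receptor PAR2, was 0.60 higher without a call (SE 0.22, adjusted p = 0.191). PARD3, a scaffold of the polarity complex at the junction, was 0.22 higher (SE 0.07, adjusted p = 0.149), and PVRL3 was −0.42 (SE 0.13, adjusted p = 0.101).

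Some markers moved with the digests too. KRT20, a keratin of differentiated gut epithelium, was 0.51 higher (SE 0.09, adjusted p = 0.00351), the only one called of 9 colon epithelium markers. CDX2, a transcription factor of the gut epithelium on the same list, was at −0.69 with a wide error (SE 0.34, adjusted p = 0.446) and was not called. Of 4 mesenchyme markers, VIM at −0.40 (SE 0.13, adjusted p = 0.148) and COL3A1 at −0.45 (SE 0.13, adjusted p = 0.0713) were called lower. COL1A1 and DCN were not called and did not fall. The COL1A1 means were 8.352 in MED-CTL, 8.137 in p31-43, 8.341 in PT and 8.385 in PT-G. Those of DCN were 6.295, 6.379, 6.327 and 6.387 in the same order. The summed normalized intensity of those 4 markers ranged from 3793 to 4745 on MED-CTL, 3170 to 4806 on p31-43, 2561 to 3855 on PT and 2643 to 3797 on PT-G arrays. Of these 4 markers, VIM, COL1A1 and COL3A1 were well above background on all 16 arrays and DCN on 8. Their part in the CLDN3 difference was not tested.

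The largest differences among these genes were not between conditions but between the earlier and the later runs, in a model with condition and batch. That model had no term for run, so arrays of the same run were counted as independent. Where arrays of a run are alike, the errors, intervals and adjusted p given for later against earlier runs are too small. The calls of that comparison share this limit, and the sizes of the differences are the safer reading. OCLN was 0.98 higher in the later runs (1.97-fold, SE 0.12, 95% interval 0.73 to 1.23, n = 8 arrays each, adjusted p = 6.98e-05). Its 8 earlier arrays had a lowest value of 10.61, a median of 11.05 and a highest of 11.18, and the later arrays 11.43, 12.02 and 12.41. CLDN12 was 0.90 higher (SE 0.12, adjusted p = 0.000126), from 9.90, 10.36 and 10.51 to 10.86, 11.14 and 11.59. CLDN1 was 0.80 higher (SE 0.13, adjusted p = 0.000766), from 11.82, 12.30 and 12.53 to 12.69, 12.99 and 13.54. CLDN2 went the other way by −0.38 (SE 0.08, adjusted p = 0.00267), from 6.58, 6.86 and 7.10 to 6.30, 6.50 and 6.58. For these 4 genes the earlier and later arrays did not overlap, though for CLDN2 the sets nearly touched, as was the case in either direction for 6.28% of all probes.

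Batch thus called 4 of the 9 genes, 3 higher and 1 lower, beside 24.2% of all probes called and 25.8% with an adjusted p under 0.05. CLDN4 at −0.47 (SE 0.17, adjusted p = 0.0615), TJP3 at −0.34 (SE 0.13, adjusted p = 0.0704), TJP1 at 0.28 (SE 0.13, adjusted p = 0.131) and CLDN7 at −0.20 (SE 0.10, adjusted p = 0.16) were not called. The brighter CLDN3 probe differed by 0.05 (SE 0.06, 95% interval −0.07 to 0.17, adjusted p = 0.568). The batches are known by scan date, and a part of the scan and a part of the cultures in these differences cannot be told apart.

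Several genes gave different answers on their 2 probes in this comparison. The dimmer CLDN3 probe was −0.51 in the later runs (SE 0.10, adjusted p = 0.00223), although the brighter one hardly differed. The dimmer probes of CLDN1 and CLDN12 gave 0.05 (SE 0.11, adjusted p = 0.795) and 0.16 (SE 0.22, adjusted p = 0.639), without the rise on the brighter ones. The dimmer OCLN probe was 0.49 higher (SE 0.13, adjusted p = 0.0156) and so called in the same direction as the brighter one. Over 16 arrays the probes of one gene correlated with r = 0.89 for OCLN, 0.82 for TJP1, 0.38 for CLDN1 and 0.36 for CLDN12. The files do not give the probe sequences, so which transcripts each probe reads was not examined.

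**Figure D4:**
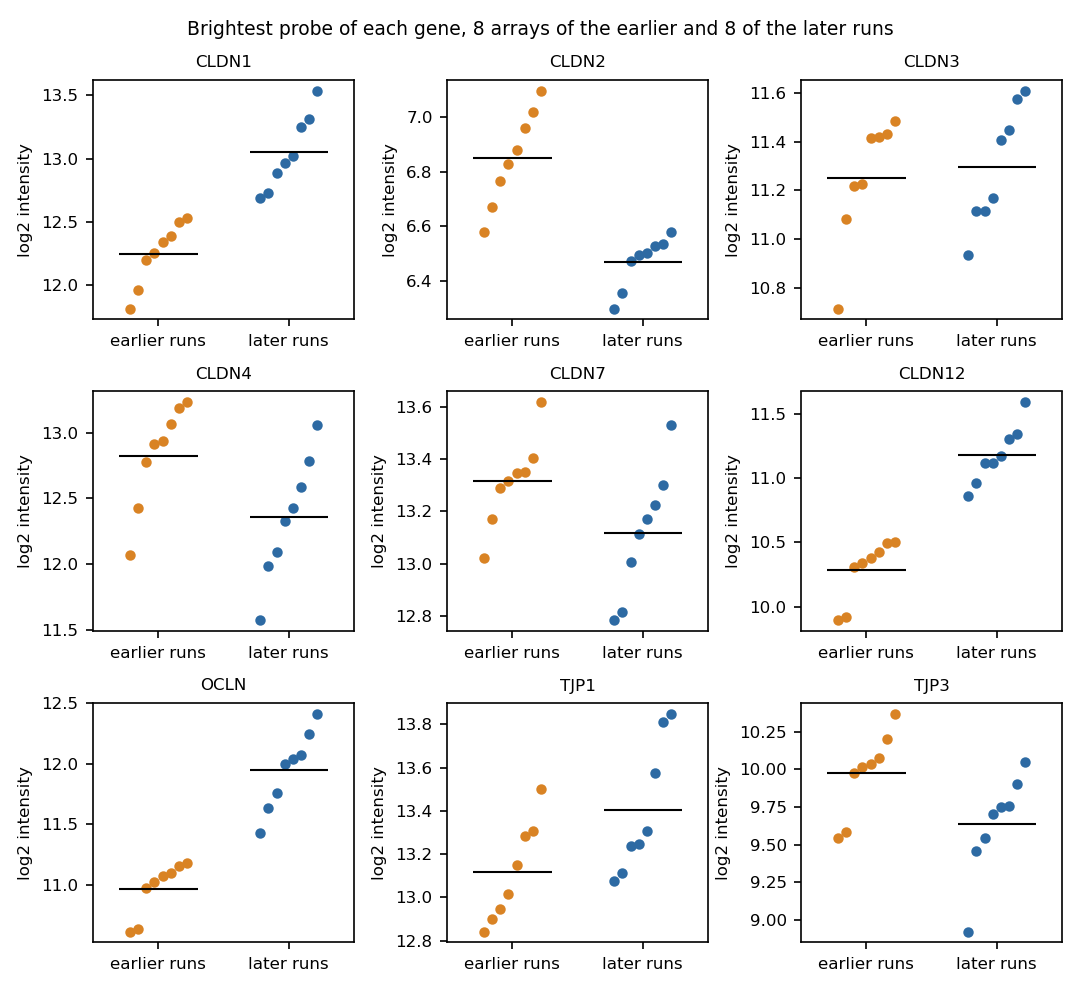
Log2 intensity (vertical axes) of the brightest probe of each gene on the 8 earlier (orange) and 8 later (blue) arrays, each set sorted by value, with black lines at the means. CLDN1, CLDN12 and OCLN are higher and CLDN2 lower on every later array, and CLDN3 lies at about the same level in both sets.

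The digest difference was then compared between the batches. None of the 9 genes was called by limma for a larger or smaller digest difference in the later than in the earlier runs, and none had a nominal p under 0.05, where 0.427% of all probes were called. For CLDN3 the digest difference was 0.38 within the earlier and 0.43 within the later runs, and the difference between them was 0.05 (SE 0.11, 95% interval −0.21 to 0.30, adjusted p = 1). Within runs 1 to 4 it was 0.45, 0.31, 0.41 and 0.44. The CLDN12 digest difference was 0.30 within the earlier and −0.07 within the later runs, a change of −0.37 (SE 0.17, 95% interval −0.76 to 0.02, adjusted p = 1).

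The members fell into sets by their course over the 16 arrays, which share 4 runs, so these correlations only describe them. CLDN1, CLDN12 and OCLN ran together with r between 0.88 and 0.92. After each run's mean was removed, CLDN1 and OCLN kept r = 0.68 and CLDN12 and OCLN 0.14. CLDN4 and TJP3 ran together with r = 0.82, and with 0.80 after the run means were removed. CLDN4 and TJP1 ran opposite to each other, with r = −0.88 before and −0.87 after. The named genes most like each called member, among 17448 named probes well above background on every array, were IL22RA1 (r = 0.93), TNFRSF11B (0.92) and ICAM1 (0.89) for CLDN3. They were CRNKL1, CD302 and BTRC for CLDN1 (r = 0.96 or 0.97), CAPZA2 and RICTOR for CLDN12 (0.97), ELOVL7, SC5DL and ATP6V0A1 for OCLN (0.98 or 0.99), and ETV4, RAC3 and PRKACA for CLDN2 (0.93 or 0.94).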

How the data were processed

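RNA from Caco-2 cells was hybridised to 16 one-colour Agilent 4x44K arrays. The authors deposited the intensity of each spot as given by Agilent Feature Extraction 9.5.3.1 (median and mean foreground, local background, and a background-subtracted processed intensity), with marks for outliers and for spots well above background. They also deposited log2 values, which equal the median intensity after quantile normalization over all spots, controls included, within 5e-09. From the files, the log2 median intensity of 43376 non-control spots was quantile normalized without background correction, marked spots were left out and spots of a probe averaged; 18 of 41000 probes, for which some condition kept under 3 unmarked arrays, were dropped. limma 3.58.1 in R 4.3.3 fitted 1 model of 4 conditions (moderated two-sided tests, Benjamini-Hochberg adjustment over 40982 probes). The 4 experiments were independent per the study's methods. Signal over background stands for depth, and precision is limited by how many arrays there were.

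Members and gene lists were chosen with earlier results of these data known. The text names all members, up to 4 called genes of each list, the 3 genes most like each called member, and, chosen after their values were seen, CDH1, F2RL1, CLDN23 and the markers given. One gene most like CLDN12 is not reported here. Replicates 1 and 2 of MED-CTL lie in runs 2 and 1; elsewhere the number is the run. Alternatives were another background correction (offset 50 for normexp) or scaling (75th percentile), the deposited log2 values, a filter on dim probes, blocks, array weights, an intensity trend, fewer groups, and leaving out each array. The model was tested on simulated arrays whose noise was drawn independently, with no effect of run. That test does not cover arrays that share runs. Promoters are those of RefSeq for all 9 genes. Figures were drawn with matplotlib.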

Additional observations from a re-analysis of the deposited data

How the results depend on the processing

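Under every other setting run, among them 2 chosen after the data were seen (both digests against MED-CTL or p31-43 alone), the CLDN3 rise in the digests stayed called on its brighter probe, at 0.36 to 0.43 when 1 array was left out. The number of members called for PT-G fell from 1 to 0 with the background-subtracted signal, median scaling, the filter on dim probes, array weights and the intensity trend, and was 0 to 1 with 1 array left out. For PT it was 0 with the background-subtracted signal, 3 with run as a block, 2 with the 2 batches as a block, and 1 to 2 with 1 array left out (2 without MED-CTL replicate 1, with TJP3 at 0.71). For p31-43 it was 1 with array weights and 0 to 1 with 1 array left out. For the digests it was 3 with slide as a block (CLDN1 and OCLN beside CLDN3) and 2 with array weights (CLDN4 at 0.57). The cause was not tested. Median scaling moved the median of all probes for PT to −0.11, and the CLDN3 difference of 0.37 there is to be read against it.

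The replicate numbers were not taken to pair the arrays, since not every pair's deviations correlated above 0.1. For same-numbered arrays r was 0.03, 0.31, −0.005 and 0.41 for PT and MED-CTL and as low as 0.05 for PT-G and PT. It was 0.40 to 0.86 for PT-G and MED-CTL and 0.26 to 0.71 for p31-43 and MED-CTL, so some sharing within numbers is seen in the data. In the earlier runs, where the MED-CTL numbers are exchanged, each condition shared more with the MED-CTL array of its run than with that of its number. By run, r was 0.375, 0.62, −0.005 and 0.411 for PT and MED-CTL. By run it was 0.628 to 0.857 for PT-G and MED-CTL and 0.538 to 0.707 for p31-43 and MED-CTL. With the replicate block 1 member was called for PT-G, PT and the digests and 0 for p31-43 and PT-G against PT, while probes called rose from 1408 to 3110, 1491 to 3481, 2649 to 5136, 159 to 432 and 37 to 95.

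None of the differences that changed sign had been called. For PT-G against MED-CTL, CLDN2 was −0.026 with the background-subtracted signal and −0.018 with median scaling, CLDN7 −0.006 with the former and TJP1 0.017 with the latter. For PT, CLDN2 was −0.063 with median scaling and −0.001 with array weights, and the dimmer probes gave −0.129 for CLDN12 and −0.009 for OCLN. For p31-43, CLDN1 was 0.072 with median scaling, 0.084 with array weights and 0.07 on its dimmer probe, CLDN2 −0.068 with the background-subtracted signal and −0.137 with median scaling, and CLDN3 0.069 on its dimmer probe. For PT-G against PT, CLDN1 was −0.072 with array weights, and CLDN2 −0.111 with the background-subtracted signal and −0.031 with normexp. For the digests against p31-43 alone CLDN2 was −0.017 and CLDN7 −0.058, and the dimmer CLDN12 probe gave −0.054 for the digests.

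With 1 array left out, the digest difference ran from 0.042 to 0.295 for CLDN1, 0.344 to 0.568 for CLDN4, 0.184 to 0.376 for TJP3 and −0.182 to −0.023 for TJP1. PT-G against MED-CTL ran from −0.019 to 0.459 for CLDN1, −0.044 to 0.223 for CLDN2, −0.034 to 0.173 for CLDN7, −0.015 to 0.548 for CLDN12, −0.01 to 0.428 for OCLN and −0.226 to 0.093 for TJP1. PT ran from −0.167 to 0.311 for CLDN1, −0.047 to 0.219 for CLDN2, −0.151 to 0.413 for CLDN12 and −0.179 to 0.203 for OCLN. p31-43 ran from −0.271 to 0.207 for CLDN1, −0.034 to 0.238 for CLDN2, −0.008 to 0.392 for CLDN4, −0.152 to 0.412 for CLDN12 and −0.292 to 0.008 for TJP1. PT-G against PT ran from −0.095 to 0.351 for CLDN1, −0.092 to 0.109 for CLDN2, −0.027 to 0.28 for CLDN12 and −0.03 to 0.412 for OCLN, and the digests from −0.031 to 0.102 for CLDN2 and −0.007 to 0.275 for CLDN12. The CLDN2 signal was not well above background on 1 PT array, which limits its values.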
